A study of Arabidopsis thaliana with 42 samples.

Results

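The plastid-encoded photosynthesis genes were examined as 6 groups of subunits, one for each protein complex of the thylakoid electron transport chain and carbon fixation. Members were the probe sets that the array's annotation places on the plastid genome and whose symbol starts with psa, psb, pet, ndh or atp, or is rbcL. The rule gave 44 genes with 1 probe set each, out of 22810 probe sets on the array and out of 77 probe sets for plastid genes. Photosystem I (psa) had 5 members, photosystem II (psb) 15, the cytochrome b6f complex (pet) 6, the NDH complex (ndh) 11, the ATP synthase (atp) 6 and Rubisco 1. The annotation of the plastid genome lists 44 protein-coding loci with such symbols, and all 44 were measured. The ndhB probe set matches both copies of that gene in the inverted repeat. The psbN product counts here with photosystem II by its symbol, although it is known as an assembly factor and its gene lies on the strand opposite to psbT and psbH.

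The plastid keeps a small genome of its own, which encodes the core subunits of each photosynthetic complex, while the nucleus encodes the antenna proteins and many peripheral subunits. Photosystem II splits water, the cytochrome b6f complex passes the electrons on and pumps protons, and photosystem I delivers the electrons to ferredoxin. The NDH complex returns electrons from ferredoxin to the plastoquinone pool in cyclic flow, the ATP synthase turns the proton gradient into ATP, and Rubisco fixes carbon dioxide. Many of these genes are transcribed together in long units, and the transcripts are cut, spliced and stabilised afterwards by nuclear-encoded proteins.

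Total RNA of Arabidopsis thaliana was hybridised to 42 single-colour Affymetrix arrays, 3 for each of 14 groups, all from plants grown on soil in continuous light at 23 °C and 65% relative humidity. The Col-0 groups were the hypocotyl, internode 2 of the stem, node 1, the vegetative apex with young leaves, the vegetative apex, the transition apex (before bolting) and the inflorescence apex (after bolting). The node sample also held about 1 mm of stem on either side of the branching point, and the Col-0 inflorescence apex held flowers up to stage 7 or 8. Inflorescence apices after bolting also came from 7 mutants in the Col-0 background: clv3-7 on the meristem side, lfy-12, ufo-1 and ap1-15 on the side of floral meristems, and ap2-6, ap3-6 and ag-12 among the organ identity genes. CLV3 limits the stem cell pool of the meristem, LFY, AP1 and UFO act in floral meristem identity and patterning, and AP2, AP3 and AG specify floral organs. Nothing in the labels states that replicates are separate plants, and the p-values accordingly reflect the spread among these arrays, which may be technical. In such bulk samples, fewer green cells and less plastid RNA per cell cannot be told apart.

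Values are MAS5 signals, a linear intensity per probe set, and a gene is compared here only across samples, never with another gene. Tests used limma on log2(signal + 8.01), fold changes are on that scale with their standard error (SE), and a gene was called at an adjusted p under 0.05 over all probe sets tested. This scale understates changes of dim genes. Replicate arrays correlated at 0.986 to 0.994. Of the genes named by the mutant alleles, 2 of 7 had a listed probe set: UFO read 20.96, 18.47 and 15.59 in ufo-1, against 29.19, 26.40 and 27.44 in Col-0 inflorescence apices, and CLV3 stayed at 14.6 or below on each array of clv3-7 and of the 7 Col-0 groups. The 6 arrays of the Col-0 inflorescence apex and node 1 carry an added 2 in their titles, and a bacterial spike-in control (dap) read 7.61 to 8.35 (log2) on them, against 3.04 to 3.45 on the other 36. Results that rest on the Col-0 inflorescence apex are therefore also given with the mutants in its place. Replicate 2 of lfy-12 stood apart: it had the lowest signal of its group for 39 of 44 members, by a median of -0.42 (log2) against the mean of the other 2 arrays. Replicate 1 of ap3-6 was the lowest of its group for 35 of 44 members, by a median of -0.33.

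All 44 members differed among the Col-0 organs (limma F test, 98.4% of all probe sets called), and 38 differed among the 8 inflorescence apex genotypes (70.1% of all probe sets called). The members passed the filter on dim probe sets, which asks for 3 arrays, in every fit. ndhF read 6.63 to 27.6 on the mutant arrays and 78.2 to 157 on the 3 Col-0 inflorescence apex arrays. Array medians were 36.3 to 45.7, so its pass among the genotypes may rest on the Col-0 arrays alone. For 33 of 44 the highest group mean was in internode 2, among them all 5 photosystem I genes, 13 of 15 photosystem II genes, 5 of 6 ATP synthase genes and rbcL. The cytochrome b6f and NDH genes were split, with 3 of 6 and 6 of 11 highest in the internode. In 25 members, all 3 internode arrays lay above each of the other 39. The lowest group mean was in the transition apex for 20 members, in clv3-7 for 13 and in ap1-15 for 8. These counts of highest, lowest and non-overlapping groups were not made over all probe sets. They therefore describe the members only, without a share to set them against. The highest group mean exceeded the lowest by a median of 4.95-fold over the NDH genes, 3.67-fold over the ATP synthase, 3.42-fold over photosystem I, 2.77-fold over cytochrome b6f and 2.73-fold over photosystem II. Single genes spanned from 1.81-fold for atpB, a catalytic subunit of the ATP synthase, to 10.5-fold for ndhJ and 10.4-fold for psbA.

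**Figure D1:**
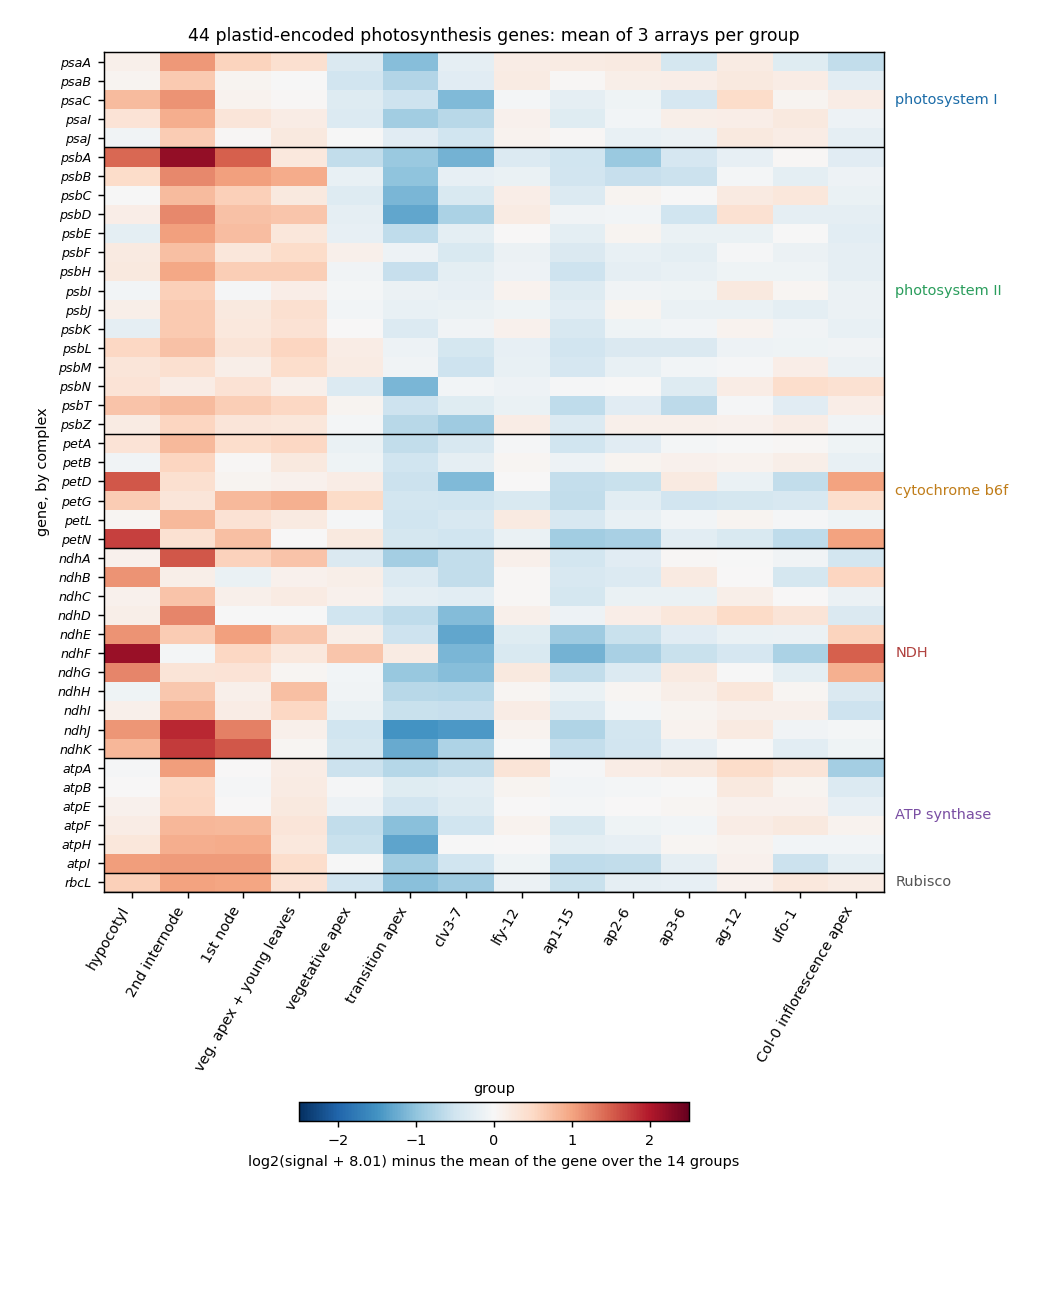
Heat map of the 44 genes (rows, by complex) over the 14 groups (columns), as the mean of 3 arrays of log2(signal + 8.01) minus the mean of the gene over the groups. The column of internode 2 is red for nearly all genes, the transition apex and clv3-7 are the bluest, and petD, petN, ndhB, ndhF and ndhG depart from their complexes in the hypocotyl and in the Col-0 inflorescence apex.

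Among the photosystem I genes, psaA and psaB encode the core that carries the reaction centre, and psaC the subunit that hands electrons to ferredoxin. In internode 2, psaA read 2177, 2215 and 2049. It read 1279.6, 1593 and 1613 in node 1, 1438, 1243 and 1362 in vegetative apices with young leaves and 1074, 1246 and 1037 in hypocotyls. It read 770.5, 778 and 823 in vegetative, 656, 443 and 387 in transition and 571, 702 and 718 in Col-0 inflorescence apices. The internode arrays were thus all higher than those of any other Col-0 group, and the transition apices had the lowest mean of the 7. The other core subunit, psaB, read 4268, 5079 and 4777 in the internode, against 2410.4, 2500.2 and 2617 in Col-0 inflorescence apices, also without overlap. psaC read 473, 533 and 322 in the internode and 342, 369 and 315 in the hypocotyl, where the arrays overlapped, against 203, 217 and 244 in inflorescence apices.

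In photosystem II, psbA encodes the D1 protein, which is replaced continually under light, and psbD its partner D2. psbA had the widest range of the complex: it read 1637, 2280.2 and 1829 in internode 2, 1018, 1246 and 1222 in node 1 and 1147, 1147 and 1046 in hypocotyls. In vegetative apices with young leaves it read 398, 613 and 472. In vegetative, transition and Col-0 inflorescence apices it read 251, 244 and 300.0, 216, 228 and 184 and 306, 324 and 369. Internode, node and hypocotyl therefore lay above the 4 Col-0 apex groups, with no overlap. psbD read 1540.5, 1319.9 and 1256 in the internode, 740.0, 1112 and 1197 in the node and 958, 902 and 1047 in apices with young leaves. It read 541, 454 and 531 in vegetative, 236, 252 and 217 in transition and 448, 542 and 535 in inflorescence apices, so that the transition apices formed a trough. The antenna subunits psbB and psbC (CP47 and CP43) averaged 1574 ± 273 and 2479.9 ± 109 in the internode, against 349 ± 134 and 653 ± 99.8 in transition apices (SD, n = 3). psbK, a small subunit, averaged 2976 ± 114 in the internode and 1486 ± 101 in transition apices (SD, n = 3).

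The cytochrome b6f genes did not share one profile. petA (cytochrome f) averaged 2251 ± 103 in internode 2, 1838 ± 84.1 in apices with young leaves and 841 ± 137 in transition apices (SD, n = 3), and petB (cytochrome b6) averaged 3479.8 ± 225, 2836 ± 83.3 and 1699 ± 68.2 in the same groups. petD (subunit IV), which is transcribed with petB, was instead highest in the hypocotyl, at 193, 296 and 221. It read 147, 153 and 171 in Col-0 inflorescence apices, against 104, 122 and 79.8 in the internode and 68.6, 87.0 and 81.9 in the node. petN, a small subunit, read 437, 535 and 459 in the hypocotyl and 315, 249.6 and 309 in Col-0 inflorescence apices, against 185, 209 and 161 in the internode. Both genes thus ordered the groups differently from petA and petB.

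The NDH genes held both the widest range, in ndhJ, and the member least like the others, ndhF. ndhJ, a subunit of the arm that faces the stroma, read 558, 599 and 498 in internode 2, 319, 374 and 380.0 in node 1 and 285, 367 and 307 in hypocotyls. It read 103, 91.4 and 102 in vegetative, 41.7, 54.4 and 41.0 in transition and 128, 142 and 144 in inflorescence apices. The membrane subunit ndhA read 1422, 1304 and 1195 in the internode, against 289, 337 and 333 in inflorescence apices. In both genes the internode arrays lay above all others shown. ndhF, a membrane subunit with a transcript of its own in the small single-copy region, read 186, 213 and 163 in hypocotyls, 28.7, 47.2 and 28.0 in the internode and 48.5, 46.9 and 70.4 in the node. It read 68.1, 67.9 and 51.4 in vegetative, 32.7, 43.4 and 51.4 in transition and 157, 78.2 and 120.4 in Col-0 inflorescence apices. The hypocotyl and inflorescence apex lay above the other 5 Col-0 groups, and the internode was the lowest of the 7 by its mean.

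In the ATP synthase, atpA and atpB encode the catalytic head and atpI and atpH subunits of the membrane part. atpA read 2832, 3065 and 2740.4 in internode 2 and 1265, 1426 and 1571 in node 1, against 671, 819 and 855 in Col-0 inflorescence apices. atpI, a dim probe set, read 175, 145 and 166 in the internode, 139, 186 and 159.8 in the node and 147, 172 and 158 in the hypocotyl, which overlapped, against 31.1, 44.5 and 33.9 in transition apices. atpA was highest in the internode with no overlap, whereas the atpI arrays of internode, node and hypocotyl could not be ordered. rbcL, the large subunit of Rubisco, read 718, 518 and 566 in the internode and 559, 571 and 639 in the node, which overlapped. It read 219, 211 and 198 in vegetative, 139, 153 and 126 in transition and 328, 355 and 343 in inflorescence apices.

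**Figure D2:**
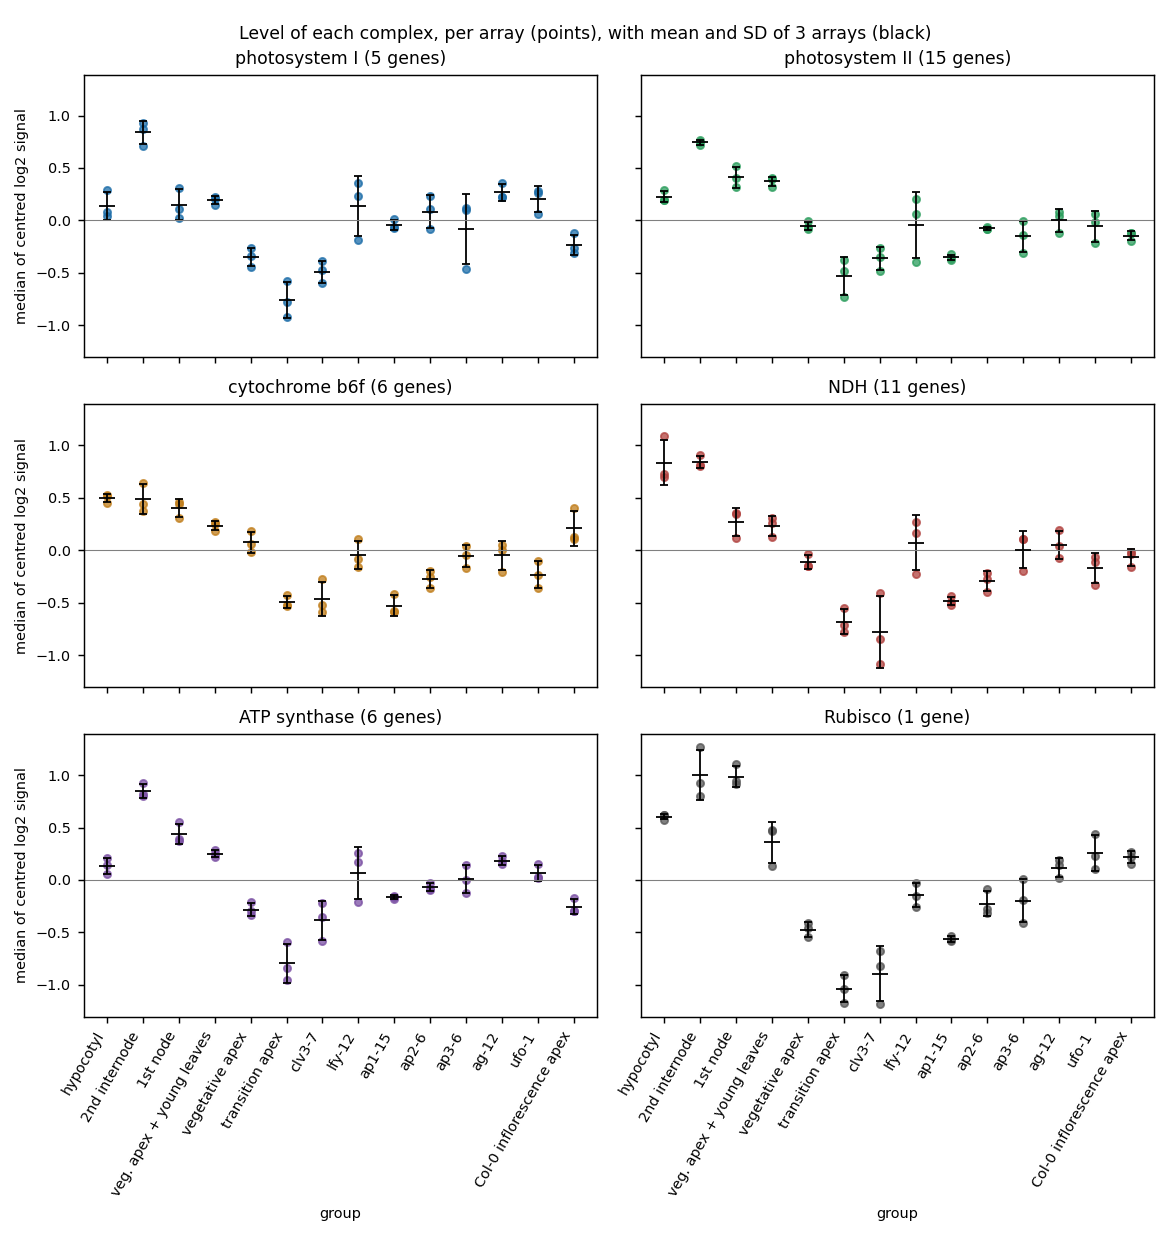
Median over the genes of each complex, per array (points), of log2(signal + 8.01) minus the mean of the gene over the 14 groups, with the mean and SD of 3 arrays in black. Internode 2 is at the top for photosystem I, photosystem II and the ATP synthase, cytochrome b6f and NDH are about as high in the hypocotyl, and one lfy-12 array lies apart from the other 2 in photosystem I, photosystem II, NDH and the ATP synthase.

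**Figure D3:**
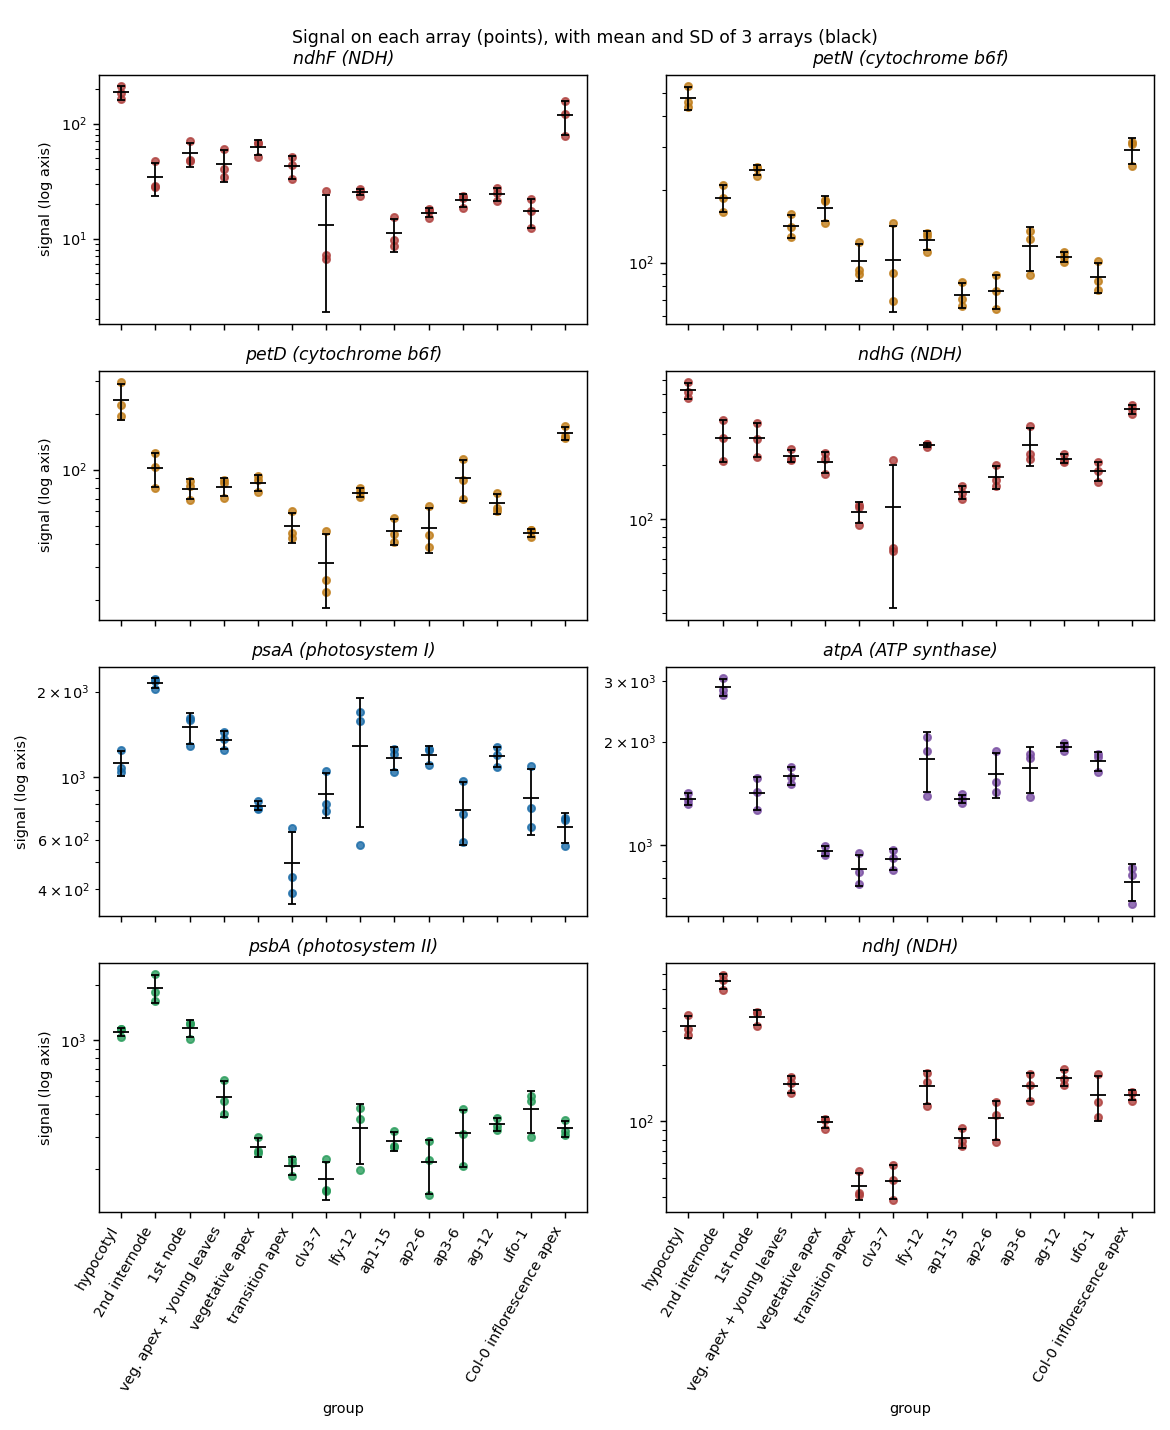
Signal of 8 genes on each of the 42 arrays (log axis), with the mean and SD of 3 arrays in black. The upper 4 genes are high in the hypocotyl and in the Col-0 inflorescence apex, and all 7 mutants lie below that apex in them. By contrast, psaA and atpA are higher in most mutants than in the Col-0 inflorescence apex.

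The 3 apex stages ask how the members change as the shoot goes from leaf production to flowering. In transition apices, 37 of 44 members fell against vegetative apices and none rose (23.1% of all probe sets were called lower and 30.6% higher). The median over members was -0.48 (log2), against 0.06 over all probe sets. The falls took in 4 of 5 photosystem I genes, 12 of 15 photosystem II genes, all 6 cytochrome b6f genes, 9 of 11 NDH genes, 5 of 6 ATP synthase genes and rbcL. The largest in each complex were in psaA (log2 fold change -0.70), psbD (-1.09), petG (-0.94), ndhJ (-1.0) and atpI (-0.86). psbD averaged 235 ± 17.5 in transition and 509 ± 47.9 in vegetative apices (SD, n = 3; log2 fold change -1.09 ± 0.14, adjusted p = 3.90e-07). rbcL averaged 139 ± 13.3 and 209 ± 10.5 in the same groups (log2 fold change -0.56 ± 0.10, adjusted p = 2.60e-05). atpA was at 849 ± 88.8 and 961 ± 31.3, and its difference did not pass (adjusted p = 0.0692). The 3'/5' signal ratio of nuclear control genes, a measure of RNA integrity, averaged 1.68 (log2) in transition and 1.35 in vegetative apices, and its part in the result was not tested beyond a fit with it as a covariate, under which the number of calls stayed within 1.5 times.

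After bolting, 32 of 44 members rose in Col-0 inflorescence apices against transition apices and none fell (15.7% of all probe sets called higher, 16.5% lower), with a median of 0.56 (log2). The rises were largest in ndhG, which reached 412, 389.5 and 438 in inflorescence apices, against 93.0, 117 and 121 in transition apices (log2 fold change 1.84 ± 0.15, adjusted p = 7.56e-10). psbN reached 203, 235 and 248, against 83.9, 61.1 and 78.7 (log2 fold change 1.53 ± 0.13, adjusted p = 1.75e-09), and petD had a log2 fold change of 1.53. atpH rose 2.39-fold and rbcL 2.38-fold, while atpA and atpB, at 782 ± 97.4 and 2595 ± 155, stood within the spread of 849 ± 88.8 and 2684 ± 98.7 in transition apices. With the mean of the 7 mutants in place of the Col-0 apex, 29 members rose and 1, ndhF, fell (18.6% and 20.4% of all probe sets). petD did not pass then, with a log2 fold change of 0.13 (adjusted p = 0.466).

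Between Col-0 inflorescence and vegetative apices the members were divided, with 15 higher and 8 lower (34.1% and 26.6% of all probe sets, 60.6% either way) and a median of -0.02. rbcL averaged 342 ± 13.8 in inflorescence and 209 ± 10.5 in vegetative apices (log2 fold change 0.69 ± 0.10, adjusted p = 1.27e-06), and psbN rose as well (0.73, adjusted p = 3.23e-05). Within the ATP synthase, atpF rose (0.70) and atpB fell (-0.32), and within NDH, ndhG rose (0.96) and ndhI fell (-0.36). The split moved with the settings: 17 rose and 4 fell after quantile normalization, 11 and 11 after median scaling, and 5 and 9 with the 3'/5' ratio as a covariate. With the 7 mutants in place of Col-0, 9 members were higher and 11 lower, and petD reversed to -0.57 (adjusted p = 2.38e-04), as did ndhG (-0.19), ndhI (0.095) and atpB (0.033). atpF lost its call with the 3'/5' covariate (0.47, adjusted p = 0.0525).

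Vegetative apices with young leaves were set against vegetative apices alone. In the samples with leaves 35 members rose and none fell (18.8% of all probe sets higher, 29.5% lower, 48.2% either way), with a median of 0.47 against -0.09 over all probe sets. Photosystem II had 14 of 15 genes higher and the ATP synthase all 6, against 3 of 6 in cytochrome b6f and 7 of 11 in NDH. psbB had the largest rise, at 1371, 1030.1 and 1528 with leaves and 642, 565 and 574 without (log2 fold change 1.11 ± 0.19, adjusted p = 4.03e-05). ndhA rose 2.09-fold, atpF 1.87-fold, rbcL 1.78-fold, psaA 1.69-fold and petA 1.61-fold. The genes that stayed within their spread included petD (-0.07), ndhB (-0.04) and ndhF (-0.43, adjusted p = 0.0948).

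In the hypocotyl, 31 members rose against vegetative apices and 1 fell (35.4% and 38.3% of all probe sets, 73.8% either way), with a median of 0.50 against -0.04 over all. psbA rose most, with 1113 ± 58.1 in hypocotyls and 265 ± 30.6 in vegetative apices (SD, n = 3; log2 fold change 2.04 ± 0.13, adjusted p = 4.02e-13). rbcL had a log2 fold change of 1.08, and the NDH genes had a median of 0.98, led by ndhJ (1.61) and with ndhF at 1.47. petN and petD rose 2.75-fold and 2.59-fold, whereas petB was at 2263 ± 172 and 2228 ± 229, within its spread. The one fall, psbK (-0.22, adjusted p = 0.00566), turned to 0.05 (adjusted p = 0.588) after quantile normalization and to -0.13 (adjusted p = 0.0796) without hypocotyl replicate 2. Of the only 10 probe sets listed with a nuclear-encoded partner of the same complexes, 1 rose and 8 fell in this comparison (median -0.37).

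**Figure D4:**
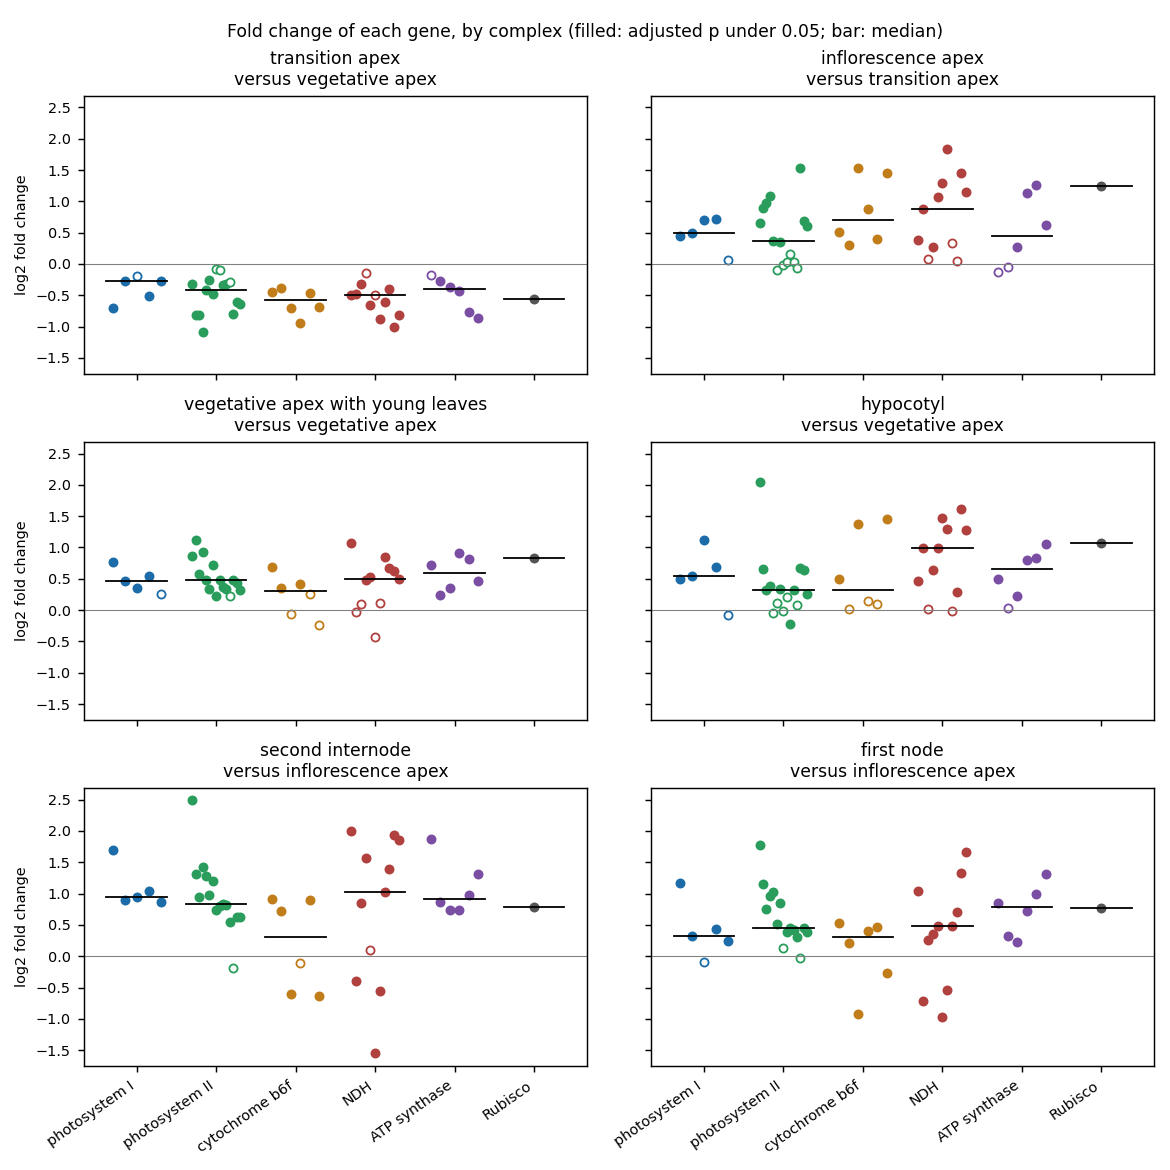
Log2 fold change of each of the 44 genes in 6 comparisons of Col-0 organs, by complex, with filled points at an adjusted p under 0.05 and a bar at the median of the complex. The transition apex has no gene above 0, and in the internode and node the cytochrome b6f and NDH genes split into genes above and genes below 0.

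The stem samples were set against the Col-0 inflorescence apex. In internode 2, 36 members rose and 5 fell (37.9% and 46.9% of all probe sets, 84.8% either way), with a median of 0.88 against -0.13 over all probe sets. All 5 photosystem I and all 6 ATP synthase genes rose, with 14 of 15 in photosystem II. psbA reached 5.61-fold (log2 fold change 2.49 ± 0.13, adjusted p = 2.47e-15), ndhA 4.01-fold, atpA 3.67-fold (log2 fold change 1.88 ± 0.08, adjusted p = 1.72e-16), psaA 3.22-fold and rbcL 1.72-fold. The 5 that fell were petN (-0.63), petD (-0.60), ndhF (log2 fold change -1.55 ± 0.21, adjusted p = 3.04e-07), ndhG (-0.56) and ndhB (-0.39). The call on ndhB was lost without internode replicate 3 (-0.30, adjusted p = 0.108), without inflorescence apex replicate 2 (-0.32, adjusted p = 0.0938) and without its replicate 3 (-0.37, adjusted p = 0.0621), and under median scaling (-0.16, adjusted p = 0.324) and quantile normalization (-0.20, adjusted p = 0.235). ndhG lost its call under median scaling (-0.31, adjusted p = 0.0504). Against the mean of the 7 mutants, 43 of 44 members rose in the internode and none fell (38.8% and 47.8% of all probe sets), and those 5 turned: petN stood at 0.90 ± 0.12 (SE, adjusted p = 7.19e-09), petD at 0.80 ± 0.13 (SE, adjusted p = 8.08e-07) and ndhF at 0.70 ± 0.17 (SE, adjusted p = 3.43e-04). Scaling by array medians moved the median of all probe sets by 0.22, and relative to all probe sets the members stood at 1.05 under it, at 0.74 after quantile normalization and at 1.02 as deposited.

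In node 1, 36 members rose and 5 fell against the Col-0 inflorescence apex (36.4% and 46% of all probe sets, 82.4% either way), with a median of 0.45 against -0.13. These 2 groups share the spike-in level and the title mark named above, so this comparison lies within that set of arrays. psbA (1.78), ndhK (1.66), atpI (1.31) and psaA (1.16) rose most in their complexes. petD (log2 fold change -0.92 ± 0.14, adjusted p = 2.14e-06), ndhF (log2 fold change -0.97 ± 0.21, adjusted p = 1.91e-04), ndhB (-0.71), ndhG (-0.55) and petN (-0.26) fell. petN lost its call without node replicate 1 or 3 or inflorescence apex replicate 1 or 3 (-0.28 to -0.20, adjusted p = 0.0514 to 0.141) and under median scaling (-0.086, adjusted p = 0.481), and ndhF lost it with the 3'/5' ratio as a covariate (-0.48, adjusted p = 0.133). With the 7 mutants in place of Col-0, 33 members were higher in the node and none lower (37% and 47.5% of all probe sets).

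Internode 2 and node 1 also differed from each other, with 28 members higher and 3 lower in the internode (27.4% and 29.8% of all probe sets, 57.2% either way) and a median of 0.39. The node arrays carry the title mark and the high spike-in level and the internode arrays do not, so organ and array set cannot be told apart here, and no other node arrays could take their place. After quantile normalization the counts were 17 and 4 and the median 0.14. All 5 photosystem I genes were higher in the internode, led by psaC (log2 fold change 1.04 ± 0.13, adjusted p = 3.40e-07), and ndhD (1.23), atpA (1.02) and psbA (0.71) led their complexes. rbcL (0.01) and atpI (0.01) did not pass, with adjusted p of 0.909 and 0.963. petG (-0.51), petN (-0.37) and ndhF (-0.58) were lower in the internode. The calls on petN and ndhF were lost without internode replicate 3 (-0.27, adjusted p = 0.0615, and -0.47, adjusted p = 0.0952), and that on ndhF also without internode replicate 1 (-0.49, adjusted p = 0.0886) or node replicate 3 (-0.42, adjusted p = 0.133).

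The hypocotyl and internode 2 differed in 40 of 44 members, with 7 higher and 33 lower in the hypocotyl (41.5% and 34.4% of all probe sets, 75.9% either way). ndhA (-1.43), psbE (-1.27), atpA (-1.07) and psaA (-0.94) had the largest falls of their complexes. The 7 higher genes were ndhF (log2 fold change 2.22 ± 0.21, adjusted p = 9.93e-10), petN (1.33), petD (1.15), ndhB (0.98), ndhG (0.90), ndhE (0.48) and petG (0.32). Each of the 7 belongs to cytochrome b6f or NDH. The calls on ndhE and petG were lost without internode replicate 3 (0.36, adjusted p = 0.115, and 0.27, adjusted p = 0.0629). ndhE also lost its call without hypocotyl replicate 2 (0.38, adjusted p = 0.102), and petG without hypocotyl replicate 1 (0.27, adjusted p = 0.0649). Under median scaling both lost it, at 0.20 (adjusted p = 0.332) for ndhE and 0.043 (adjusted p = 0.742) for petG. Relative to all probe sets, whose median moved by -0.25 under median scaling and by -0.11 after quantile normalization, the members stood at -0.71 and -0.35 there, against -0.67 as deposited.

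Of these 7 genes, all but ndhB read higher on all 3 Col-0 inflorescence apex arrays than on any of the 21 mutant arrays, and no member read lower on all 3 than on each mutant array. This set of 6 (ndhF, ndhE, ndhG, petD, petG and petN) was chosen after its values were seen, and no such count was made over all probe sets. Against the mean of the 7 mutants, 10 members were called higher and 8 lower in the Col-0 apex (10.4% and 10.2% of all probe sets). On the low side atpA came close, with at most 855 in Col-0 and at least 844 on the mutant arrays. On the high side ndhE barely cleared, with at least 254.4 in Col-0 and at most 254.0 on the mutant arrays. For petG these values were 214 and 208. ndhF read 25.8, 6.63 and 7.17 in clv3-7, 9.75, 8.64 and 15.4 in ap1-15 and 27.6, 21.1 and 24.8 in ag-12, against 157, 78.2 and 120.4 in Col-0. petN read 64.3 to 146 on the mutant arrays, with a median of 90.4, against 315, 249.6 and 309 in Col-0. ndhG read 140.4, 153 and 131 in ap1-15 and 265, 252 and 265 in lfy-12, against 412, 389.5 and 438 in Col-0. Node 1, whose arrays share the title mark and the spike-in level of the Col-0 apex, read 48.5, 46.9 and 70.4 for ndhF, below the Col-0 apex and above each mutant array (27.6 at most). Against the mean of the 7 mutants, node 1 was higher for all 6 genes, with log2 fold changes of 1.28 for ndhF, 1.26 for petN, 1.25 for petG, 1.55 for ndhE, 0.60 for ndhG and 0.47 for petD. In that comparison 33 of all 44 members and 37% of all probe sets were called higher in the node. The 6 genes were picked by their low mutant arrays, so this result gives them no separate support. The 18 arrays of the 6 Col-0 organs other than the inflorescence apex, most without the title mark, read 28.0 to 213 for ndhF. The lowest of them lay just above the highest mutant array (27.6). For the other genes of the set these organ arrays overlapped the mutant arrays. The lowest organ array and the highest mutant array read 89.5 and 146 for petN, 43.2 and 114 for petD and 112 and 208 for petG. They read 132 and 254 for ndhE and 93.0 and 333 for ndhG. The part of the array set in the difference between Col-0 and the mutants was not tested. All 7 mutant comparisons use the same 3 Col-0 arrays, so calls on these 6 genes in 7 mutants are not 7 independent results.

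In clv3-7 apices, 17 members fell against Col-0 and none rose (8.69% and 10.4% of all probe sets, 19.1% either way), with a median of -0.32. The falls lay in 7 of 11 NDH genes, 4 of 6 cytochrome b6f genes, 2 each of photosystem I and II, 1 ATP synthase gene and rbcL. rbcL read 180.4, 162 and 125 in clv3-7, against 328, 355 and 343 in Col-0 (log2 fold change -1.11 ± 0.11, adjusted p = 2.87e-08). psbA read 226, 155 and 152, against 306, 324 and 369 (log2 fold change -0.89 ± 0.24, adjusted p = 0.0103). petD read 47.1, 22.1 and 25.5 and ndhF 25.8, 6.63 and 7.17, with log2 fold changes of -2.11 and -2.64. psaC fell as well (-1.29, adjusted p = 0.0188), but not without clv3-7 replicate 2 or 3 or inflorescence apex replicate 3 (-1.22 to -1.18, adjusted p = 0.0606 to 0.069). Against the mean of the other 6 mutants, 28 members fell in clv3-7 and none rose (14% and 18.6% of all probe sets), including 4 of 5 photosystem I genes and 9 of 11 NDH genes. ndhF did not pass there, at -0.46 ± 0.18 (SE, adjusted p = 0.0533), whereas petD did, at -0.83 ± 0.13 (SE, adjusted p = 2.92e-05). psbA then stood at -0.78 ± 0.19 (SE, adjusted p = 0.0019) and rbcL at -0.77 ± 0.08 (SE, adjusted p = 4.87e-08).

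In ap1-15, 16 members fell and 4 rose against Col-0 (13.5% and 14% of all probe sets), with a median of -0.27. petN read 66.5, 70.8 and 83.4 in ap1-15 (-1.87) and ndhF fell most (-2.68), while rbcL read 193, 200.3 and 195 (log2 fold change -0.78 ± 0.11, adjusted p = 2.67e-06). Those higher in ap1-15 were from photosystem I and the ATP synthase, with atpA at 1404, 1324 and 1359, against 671, 819 and 855 in Col-0 (log2 fold change 0.80 ± 0.12, adjusted p = 7.46e-06). Against the other 6 mutants, 17 members fell and none rose (15.9% and 17.7% of all probe sets), and atpA was then at -0.19 (adjusted p = 0.0994).

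The other 5 mutants had members on both sides. In ag-12, 14 rose and 7 fell (12.4% and 14.4% of all probe sets, 26.9% either way). In ufo-1 9 rose and 7 fell (9.4% and 9.38%), in ap3-6 7 and 9 (11.3% and 12.5%), in ap2-6 7 and 9 (10.2% and 10.5%), and in lfy-12 9 and 9 (13.3% and 13.7%, 27% either way). The ATP synthase head was among the genes that rose: atpA read 1981, 1881 and 1937 in ag-12 and 1802, 1631 and 1836 in ufo-1, against 671, 819 and 855 in Col-0. Its log2 fold change was 1.30 in ag-12, 1.17 in ufo-1, 1.17 in lfy-12, 1.09 in ap3-6 and 1.03 in ap2-6. psaB and atpB were higher in 6 of 7 mutants each, psaA in 4, and petB, atpE and ndhI in 5. The cytochrome b6f complex had petG, petD and petN lower in each of the 7 mutants, and petB higher in 5. Several of these calls rested on single arrays: psaA lost its call in ag-12, ap1-15, ap2-6 and lfy-12 without inflorescence apex replicate 1 (0.70 to 0.74, adjusted p = 0.0646 to 0.0749), and petB in ap2-6 without ap2-6 replicate 2 (0.13, adjusted p = 0.299). All 5 petB calls were lost after quantile normalization (0.076 to 0.11, adjusted p = 0.262 to 0.526) and against the other 6 mutants (0.039 to 0.15, adjusted p = 0.106 to 0.721), and that in lfy-12 also with a replicate block (adjusted p = 0.0561). All 4 psaA calls were lost against the other 6 mutants (0.24 to 0.30, adjusted p = 0.294 to 0.398). In that comparison no ATP synthase gene, atpA and atpB included, was called higher in lfy-12, ap1-15, ap2-6 or ap3-6. In ag-12 4 of 6 were, and in ufo-1 1 of 6. No photosystem I gene, psaB included, was called higher there in lfy-12, ap1-15 or ap2-6, against 1 of 5 in ap3-6, 1 in ufo-1 and 4 in ag-12. The 3'/5' ratio averaged 1.56 (log2) in ap1-15 and 1.63 in ap2-6, against 1.83 in Col-0, and with it as a covariate psaA stood at 0.14 (adjusted p = 0.758) in ap1-15 and 0.37 (adjusted p = 0.289) in ap2-6.

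Each of these 5 mutants was also set against the mean of the other 6, which includes clv3-7 and ap1-15, the 2 mutants with most members on the low side. Their low members pull that mean down, and how far this adds to the higher calls below was not tested. In ag-12, 17 rose and none fell against the other 6 mutants (13.5% and 15.7% of all probe sets), in lfy-12 10 and none (12.7% and 11.1%), and in ufo-1 9 and none (10.6% and 11.6%). In ap3-6, 6 rose and 1 fell (12% and 14.1%), and in ap2-6 1 rose and none fell (9.09% and 10.3%). The number of calls in lfy-12 against Col-0 depended on single arrays, with 24 without lfy-12 replicate 2 and 10 without inflorescence apex replicate 2, against 18 with all arrays. The first of these arrays was low in the core genes: psbD read 1111, 248 and 1171, psbB 783, 227 and 1220.4 and psaC 289, 68.5 and 311 in lfy-12. Replicate 1 of ap3-6, low in 35 members, was low in these 3 genes too, with psbD at 261, 442 and 619.9, psbB at 299, 592 and 557 and psaC at 62.6, 209 and 211. The 3'/5' ratio was 1.78, 2.00 and 1.67 (log2) on the lfy-12 arrays and 1.91, 1.95 and 1.82 on the ap3-6 arrays. Its part in these lows was not tested.

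**Figure D5:**
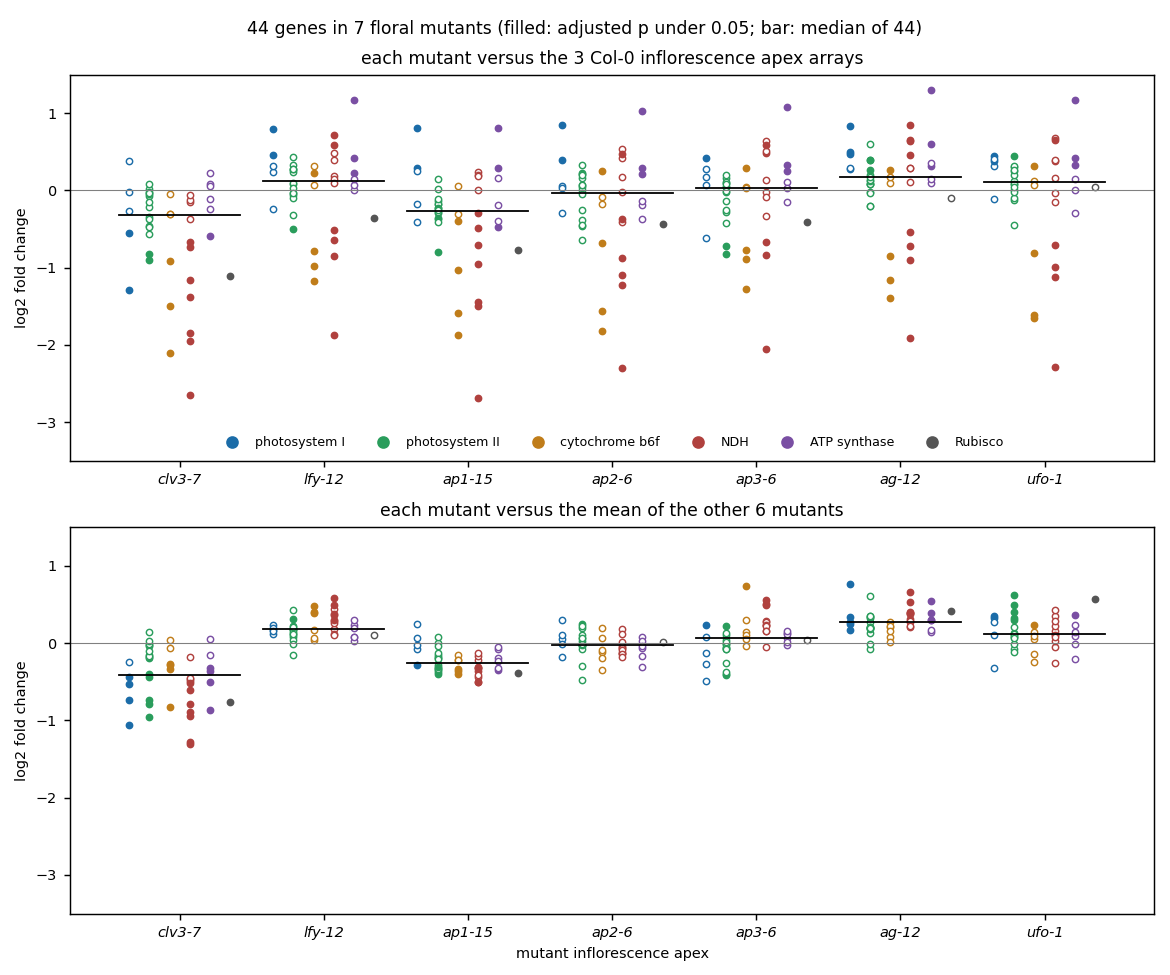
Log2 fold change of the 44 genes in 7 mutants, against the 3 Col-0 inflorescence apex arrays (top) and against the mean of the other 6 mutants (bottom), by complex, filled at an adjusted p under 0.05, with a bar at the median of the 44. The spread between genes in the top panel, down to -2.68 for ndhF in ap1-15, shrinks in the bottom panel, where clv3-7 and ap1-15 keep medians of -0.42 and -0.26.

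Members that are transcribed together were compared over the 14 group means. The units were listed from textbook knowledge of the plastid genome. Correlations are given as descriptions, since the points share arrays and overall level. Over 54 pairs within a unit the median Pearson correlation was 0.77 (0.18 to 0.97), and over 892 pairs from different units it was 0.71 (-0.30 to 0.98). The psbD, psbC and psbZ genes ran together (0.82 to 0.89), as did ndhJ and ndhK (0.97) and atpB and atpE (0.93). In the unit of psbB, psbT, psbH, petB and petD the range was 0.18 to 0.96, with psbB and psbH at the upper end and petB and petD, which lie side by side, at the lower. Without the hypocotyl and the Col-0 inflorescence apex, petB and petD had 0.60 (Spearman 0.48, 12 groups). psbN, on the other strand within that unit, had 0.55 with psbT and 0.50 with psbH. In the unit that runs from ndhH to ndhD, ndhA and ndhI had 0.95 and ndhG and ndhE 0.83, while ndhG and ndhH had 0.40.

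The members least like the median of the other 43 over the 14 groups were ndhF (0.31), ndhB (0.45), petN (0.50) and petD (0.53), and the most like were petA and petL (0.97 each). ndhF was instead closest to petN: their correlation was 0.93 over 14 groups (Spearman 0.91) and 0.81 without the hypocotyl and the Col-0 inflorescence apex (Spearman 0.85, 12 groups). petN and petD had 0.90 and 0.73 over the same sets, and ndhF and ndhB 0.85 and 0.58. These genes lie in different transcription units.

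The other genes on the plastid genome give a measure of how far the profiles were shared by the whole plastid. They were 24 probe sets (23 genes) for the plastid ribosome and RNA polymerase and 9 other plastid probe sets. In internode 2 against the Col-0 inflorescence apex, 6 of the 24 rose and 9 fell (median -0.05). Of the 9 others, 6 rose and 3 fell (median 0.34). Of the 44 photosynthesis genes, 36 rose and 5 fell (median 0.88). Over all probe sets 37.9% were called higher and 46.9% lower. In node 1, 4 of the 24 rose and 14 fell, and 3 of the 9 others rose and 2 fell (36.4% of all probe sets higher, 46% lower). In the transition apex against the vegetative apex both classes fell with the members, 18 of 24 (median -0.39) and 8 of 9 (median -0.56), against 23.1% of all probe sets. Both rose with young leaves, 20 of 24 (median 0.38) and 8 of 9 (median 0.45), against 18.8% of all probe sets. No test between the classes was made. Only 10 probe sets were listed with a nuclear-encoded partner, since 8794 of the 22810 probe sets had no gene listed. They were PSBW, PSBY, PSAN, PSAE-1, ATPC1, NdhL, NdhN and the related LHCB4.1, LHCB4.2 and LHCB4.3, with no RBCS, LHCA or PETC gene. They thus cover a small part of the nuclear-encoded subunits. All 10 were higher in the internode than in the inflorescence apex (median 1.82), and all 10 were higher in node 1 than in that apex (median 1.44). All 10 were also higher in vegetative apices with young leaves than in those without (median 0.92). In transition against vegetative apices 1 of the 10 rose and 9 fell (median -0.59). In the inflorescence apex against the transition apex 1 of these 10 rose and 6 fell (median -0.22), where 32 members rose. In that comparison 15 of the 24 ribosome and polymerase probe sets rose and 1 fell (median 0.35). Of the 9 other plastid probe sets, 7 rose and 0 fell (median 0.79). Over all probe sets 15.7% were called higher there and 16.5% lower.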

How the data were processed

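The deposited values are MAS5 signals, a linear intensity per probe set that is never negative here, and the mean after trimming 2% at each end averaged 100 over the arrays. MAS5 is named per the submitters' processing notes. The build behind the annotation was not given in the sources used here. MAS5 signals of dim probe sets are noisy, so an offset of 8.01, the 25th percentile of signal taken as a median over arrays, was added before log2. Probe sets had to exceed the 40th percentile on 3 arrays, and 64 control probe sets were left out. Differences were tested with limma 3.58.1 in R 4.3.3 (lmFit and eBayes with trend) over all remaining probe sets, 16039 for the 7 Col-0 organs and 14630 for the 8 inflorescence apex genotypes, with Benjamini-Hochberg adjustment. The scripts were tested on simulated data. The members and gene lists were chosen with earlier results of these data known. Named genes were the core subunits, the called member with the largest rise and fall in each complex and comparison, and called members that moved against the median of their complex. Samples were grouped by the labels, and 0 columns belonged to no listed sample. Replicate letters did not pair the samples: same-letter deviations had a median correlation of 0.0008 (-0.15 to 0.12). Alternatives were 2 other scalings, other offsets and filters, a fit over all 42 arrays, no trend, the 3'/5' ratio as a covariate, a replicate block, leaving out each array, and the mutants in place of the Col-0 apex.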

Additional observations from a re-analysis of the deposited data

How the results depend on the processing

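Of the recomputed counts of members called, 398 stayed within 1.5 times the value given in the report and 7 did not. Those were comparisons with the other 6 mutants in place of Col-0, which gave 28 calls in clv3-7, 10 in lfy-12, 1 in ap2-6, 7 in ap3-6 and 9 in ufo-1, the inflorescence apex against the vegetative apex with the 3'/5' ratio as a covariate, which gave 14 calls against 23, and lfy-12 without inflorescence apex replicate 2, which gave 10 calls against 18. Leaving out single arrays gave 10 to 24 calls in lfy-12, 14 to 23 in ag-12, 11 to 17 in ap2-6, 13 to 16 in ap3-6, 15 to 18 in clv3-7, 16 to 18 in ap1-15, 12 to 14 in ufo-1 and 35 to 43 in the F test over genotypes. With a replicate block, 20 members were called in ag-12, 19 in ap1-15, 14 in ap2-6, 16 in ap3-6, 17 in clv3-7 and 40 in node 1 against the inflorescence apex, and the pairing check gave no reason to prefer it. The cause of the changes below was not tested. With the other 6 mutants in place of Col-0, signs turned (log2 fold change) for atpA (-0.19) and atpB (-0.070) in ap1-15, for ndhB (0.27), ndhE (0.41), ndhF (0.39), ndhG (0.29) and petN (0.15) in ag-12, for ndhB (0.29), ndhE (0.26), ndhF (0.45), ndhG (0.58), petN (0.41) and rbcL (0.11) in lfy-12, for ndhF (0.23), petN (0.29) and rbcL (0.045) in ap3-6, and for rbcL (0.012) in ap2-6. With the mean of the 7 mutants in place of the Col-0 inflorescence apex they turned in node 1 for ndhB (0.051), ndhF (1.28), ndhG (0.60), petD (0.47) and petN (1.26), in internode 2 for ndhB (0.37), ndhF (0.70), ndhG (0.59), petD (0.80) and petN (0.90), and against the vegetative apex for atpB (0.033), ndhG (-0.19), ndhI (0.095) and petD (-0.57). Quantile normalization turned psbK in the hypocotyl against the vegetative apex (0.048). It also moved the higher and lower calls to 4 and 9 in ap2-6, 4 and 9 in ap3-6, 9 and 7 in ag-12 and 6 and 7 in ufo-1, and median scaling gave 10 and 8 in ap3-6 and 13 and 6 in ufo-1. In 175 recomputed tests of a single gene the call was lost. Scaling by array medians moved the median of all probe sets by 0.15 in node 1 against the inflorescence apex. Dim probe sets such as ndhF in the mutants lie near the offset, which limits the size of their fold changes.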
